A study of Mus musculus with 6 samples.

Results

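The G-protein-coupled receptors through which hepatocytes sense hormones and extracellular purines were examined as 9 genes, Gcgr, Avpr1a, Adra1a, Adra1b, Adora1, Adora2a, P2ry2, S1pr1 and Ptger3, taken by their symbols from the 24063 genes of the raw count table. RNA was sequenced from liver tumors of male C57BL/6 mice (WT named C57BL/6J in the study's methods), 3 WT (Nr2e3+/+) and 3 Nr2e3-/-, the latter lacking the orphan nuclear receptor Nr2e3. All mice of both genotypes had received the liver carcinogen diethylnitrosamine (DEN) by 1 injection of 25 mg per kg at 15 days of age, and tumors were taken at the 24-week time point. Each library came from 1 tumor sample, and since the labels do not describe the animals further, p-values measure the spread between these samples. In bulk tumor RNA, fewer cells of a type and less RNA per cell cannot be told apart.

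These receptors sit on the cell surface and pass a signal to heterotrimeric G proteins. The glucagon receptor Gcgr and the adenosine receptor Adora2a couple to Gs, which raises cAMP, and in hepatocytes cAMP drives glucose output. The adenosine receptor Adora1 and the prostaglandin E receptor EP3 (Ptger3) couple mainly to Gi, which lowers cAMP. The vasopressin receptor V1A (Avpr1a), the alpha-1 adrenergic receptors Adra1a and Adra1b and the ATP and UTP receptor P2ry2 couple to Gq, which releases calcium from internal stores and activates glycogen phosphorylase. S1pr1 binds sphingosine-1-phosphate and is best known from endothelium.

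Depth ran from 15376261 to 28690279 counts per library. A count of 0 therefore allows up to 0.105 to 0.195 CPM (counts scaled to library size), taken as 3 counts per library and covering counting error only. Nr2e3 itself was at 0 counts in all 6 libraries, so its counts could not check the genotype labels. Nr2e3-/- replicate 1 stood nearer to the WT libraries than to the other Nr2e3-/- libraries. On the first principal component, which held 52.3% of the variance, its score was -14.2, against -31.5 to -23.3 in WT and 53.0 and 43.4 in Nr2e3-/- replicates 2 and 3. The receptor results that rest on this library are given with and without it.

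Upstream sequences of Avpr1a, Adra1b and Adora1, 3 of the 4 receptors with an unadjusted edgeR p under 0.05 between the genotypes, are shown first, so that the promoter letters can be read beside the levels. They are the 250 bases before the annotated start in RefSeq (GRCm38.p6), read 5′ to 3′ along the gene's strand. Capitals mark matches on either strand to 4 motifs. GGGCGG is the core of Sp1 sites and reads CCGCCC on the opposite strand. The TATA box was searched as TATAAA. The CCAAT box was searched by its name, and it reads ATTGG when reversed. TGACG is the core of cAMP response elements. The windows are chr10:122448249-122448498 (plus strand) for Avpr1a, chr11:43901238-43901487 (minus strand) for Adra1b and chr1:134235458-134235707 (minus strand) for Adora1.
Avpr1a: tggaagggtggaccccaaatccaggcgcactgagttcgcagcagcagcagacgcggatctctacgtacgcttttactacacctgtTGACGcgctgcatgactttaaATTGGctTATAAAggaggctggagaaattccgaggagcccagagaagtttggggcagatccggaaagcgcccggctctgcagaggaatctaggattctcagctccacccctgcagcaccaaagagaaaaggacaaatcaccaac
Adra1b: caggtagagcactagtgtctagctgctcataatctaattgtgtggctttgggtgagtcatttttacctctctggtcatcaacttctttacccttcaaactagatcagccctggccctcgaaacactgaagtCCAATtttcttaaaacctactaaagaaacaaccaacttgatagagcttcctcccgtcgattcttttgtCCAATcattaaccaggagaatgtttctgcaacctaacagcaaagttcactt
Adora1: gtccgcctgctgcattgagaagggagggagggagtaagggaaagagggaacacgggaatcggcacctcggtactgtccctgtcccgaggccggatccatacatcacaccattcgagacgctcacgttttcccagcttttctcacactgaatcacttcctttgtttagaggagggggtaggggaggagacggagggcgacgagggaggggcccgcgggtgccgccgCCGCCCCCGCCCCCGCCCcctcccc

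The Avpr1a window held 1 TATAAA, from 137 to 132 bases upstream of the start, next to a reversed CCAAT at 144 to 140 bases and downstream of a TGACG at 165 to 161 bases. The Adra1b window held 2 CCAAT, at 119 to 115 and 51 to 47 bases upstream. The Adora1 window held 3 reversed GGGCGG end to end between 25 and 8 bases upstream. Such letters are common. Of 32851 windows of this length upstream of annotated RefSeq starts, 32.7% held GGGCGG, 12.4% TATAAA, 33.8% CCAAT and 17.8% TGACG. GC content of the windows shown was 53.6% for Avpr1a, 41.6% for Adra1b and 64.4% for Adora1, against a median of 52.4% over all windows. A match is a description of the letters, not of a bound site. Windows were matched for 6 of the 9 receptors, not for Adra1a, the fourth of these, nor for Adora2a and S1pr1. Adra1b and Adora1 each had a second window, with 1 GGGCGG and no match respectively. GC content of the second window was 72.8% for Adra1b and 65.2% for Adora1.

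Between the genotypes, Avpr1a was 3.03-fold higher in Nr2e3-/- tumors, Adora1 3.12-fold lower, Adra1a 2.67-fold lower and Adra1b 1.51-fold lower, while Gcgr, the most abundant receptor of the set, was within 1.12-fold. Of the 9 receptors, 8 had enough counts to be tested, and Ptger3 did not. None of the 8 had an adjusted p under 0.05 by edgeR's quasi-likelihood test with Benjamini-Hochberg adjustment, where 0.0958% of 13572 genes did. At an unadjusted edgeR p under 0.05 there were 4 of 8 receptors, against 21.5% of all genes. The receptors were chosen with earlier results of these data known, so this share is a description and not a test. Avpr1a was the 1 on the higher side, where 11.8% of genes were, and Adra1a, Adra1b and Adora1 were on the lower side, where 9.72% were. For 5 of the 8, these 4 and Gcgr, WT and Nr2e3-/- libraries had separate ranges, against 26.8% of all genes. Avpr1a was the 1 with the higher range in Nr2e3-/-, where 13.9% of genes were, and the other 4 had the lower range, where 12.9% were. Adjusted p-values under 0.05 were given to Avpr1a and Adora1 by DESeq2, which called 7.93% of genes, and to Avpr1a, Adra1a, Adra1b and Adora1 by limma-voom with quality weights, which called 17.4%. Without Nr2e3-/- replicate 1, edgeR called those 4 and P2ry2, 5 of 8, with 21.8% of all genes called.

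**Figure D1:**
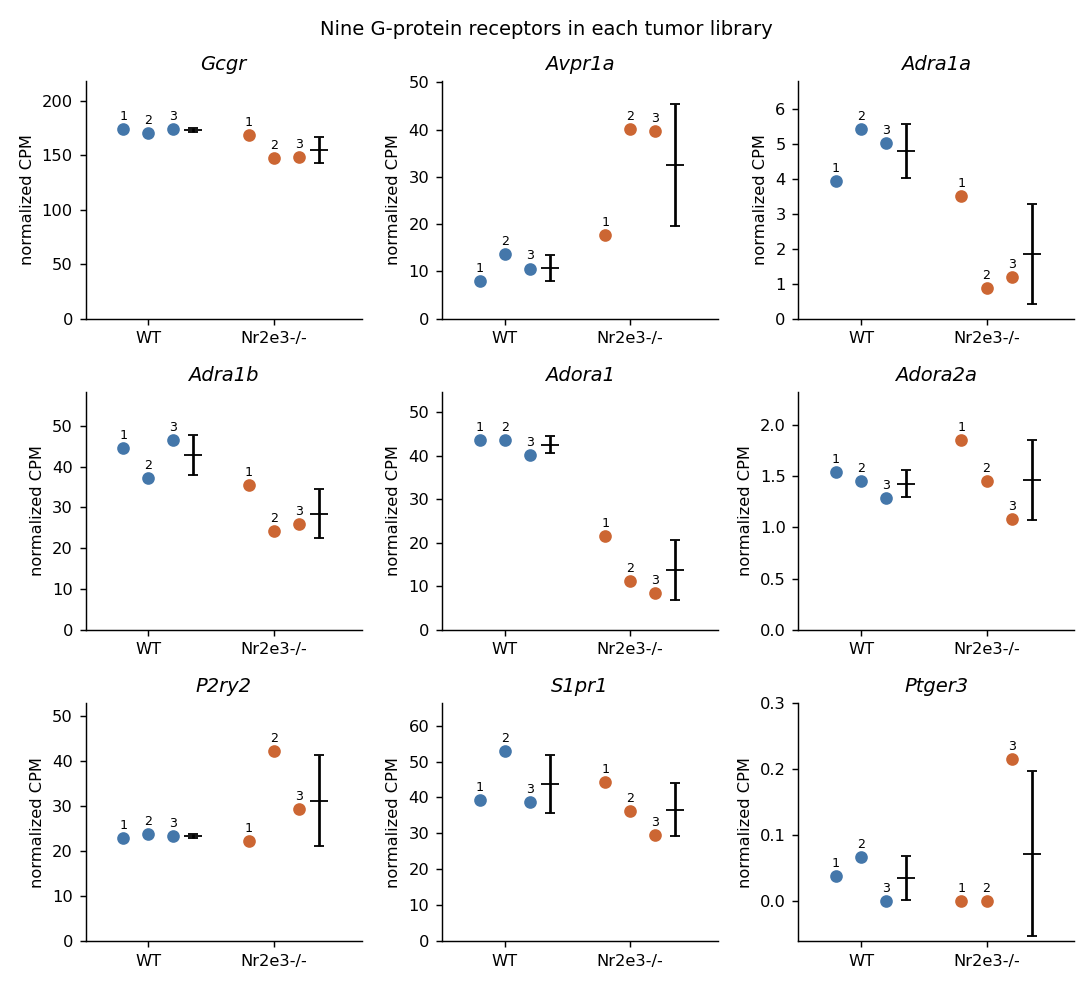
Normalized CPM of each receptor (vertical axes, linear, on separate scales) in the 3 WT (blue) and 3 Nr2e3-/- (orange) libraries, numbered by replicate, with the mean and SD in black. Avpr1a is higher in all 3 Nr2e3-/- libraries and Adora1 lower, with replicate 1 nearest to WT for both, while Adora2a, P2ry2 and S1pr1 overlap.

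Gcgr (chr11:120530699-120538986, plus strand, GRCm38) is the receptor by which glucagon raises hepatic glucose output. Its level was 174, 171 and 174 normalized CPM in WT libraries 1 to 3. In the Nr2e3-/- libraries it was 169, 148 and 148. Every Nr2e3-/- library was thus a little below every WT library, and replicate 1 lay close to WT. The means were 173 ± 2.15 and 155 ± 11.9 (SD, n = 3 each), a log2 fold change of -0.16 (SE 0.10) with an edgeR adjusted p of 0.384. A two-sided exact permutation test over 3 against 3 libraries gave p = 0.1, the smallest that this design allows.

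Avpr1a (chr10:122448499-122453452, plus strand) answers vasopressin with calcium release. It stood at 7.99, 13.6 and 10.6 normalized CPM in WT and at 17.7, 40.2 and 39.7 in Nr2e3-/-. The groups did not overlap, and replicate 2 was 2.28-fold above replicate 1. Relative to the WT mean, the 3 Nr2e3-/- libraries were at 165%, 375% and 370%. Means of 10.7 ± 2.83 and 32.6 ± 12.9 (SD, n = 3 each) gave a log2 fold change of 1.60 (SE 0.34), with an edgeR p of 0.00212 and an adjusted p of 0.0997. A log2 fold change at least as large in size was found for 1.94% of the genes tested. The adjusted p was 0.000324 by DESeq2 (log2 fold change 1.61), 0.0146 by limma-voom (1.77) and 0.00362 by edgeR without Nr2e3-/- replicate 1 (1.90). Of 13 alternative fits, only these 3 gave an adjusted p under 0.05. By edgeR without Nr2e3-/- replicate 3 it was 0.341. Among all tested genes, the library pattern of Avpr1a was most like those of C5ar1, the complement C5a receptor, and Ahr, the aryl hydrocarbon receptor. The root mean square difference of their centred log2 levels over the 6 libraries was 0.154 for C5ar1 and 0.198 for Ahr.

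Adra1b (chr11:43774606-43901210, minus strand) is the main alpha-1 adrenergic receptor of rodent hepatocytes and carries the glycogenolytic signal of noradrenaline and adrenaline. Levels were 44.6, 37.3 and 46.6 normalized CPM in WT and 35.4, 24.2 and 25.8 in Nr2e3-/-. All 3 Nr2e3-/- libraries lay below the lowest WT library, replicate 1 only just. With means of 42.8 ± 4.89 and 28.5 ± 6.03 (SD, n = 3 each), the log2 fold change was -0.59 (SE 0.17), the edgeR p 0.0101 and the adjusted p 0.136. The adjusted p was 0.0531 by DESeq2, 0.0233 by limma-voom (log2 fold change -0.68) and 0.0108 by edgeR without Nr2e3-/- replicate 1 (-0.77). Of 13 alternative fits, only the last 2 of these gave an adjusted p under 0.05. By edgeR without Nr2e3-/- replicate 3 it was 0.395. A change at least as large in size was found for 18.0% of tested genes. Phka2 had the library pattern most like that of Adra1b (root mean square difference 0.0476), followed closely by Ccdc61 (0.0540). Phka2 is the liver regulatory subunit of phosphorylase kinase, the calcium-dependent enzyme that switches on glycogen breakdown.

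Adra1a (chr14:66635251-66771168, plus strand), the second alpha-1 receptor, was much scarcer. Its counts were 103, 161 and 145 in WT and 53, 24 and 22 in Nr2e3-/-. These are 3.96, 5.45 and 5.03 normalized CPM in WT against 3.51, 0.891 and 1.19. Replicate 1 was only slightly below the lowest WT library, and replicates 2 and 3 held 18.5% and 24.7% of the WT mean. The means were 4.81 ± 0.769 and 1.86 ± 1.43 (SD, n = 3 each). EdgeR gave a log2 fold change of -1.42 (SE 0.49), a p of 0.0223 and an adjusted p of 0.173. Without Nr2e3-/- replicate 1 the log2 fold change was -2.21 and the edgeR adjusted p 0.00442. By limma-voom they were -1.91 and 0.0187, and DESeq2 gave an adjusted p of 0.0581. Of 13 alternative fits, only the first 2 of these gave an adjusted p under 0.05. By edgeR without Nr2e3-/- replicate 3 it was 0.447. Fam89a (0.128) and Wipf3 (0.131) had the library patterns most like that of Adra1a by the same measure.

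The 3 Gq-coupled hormone receptors of the set were therefore set beside each other per kb of exon. This comparison was chosen after their values had been seen and is described without a test. Adra1b made up most of their summed level in WT tumors, and Avpr1a most of it in Nr2e3-/- replicates 2 and 3. The share of Avpr1a was 18.0%, 30.5% and 21.7% in WT and 37.9%, 67.5% and 65.7% in Nr2e3-/-. Avpr1a over Adra1b, per length, was 0.227, 0.463 and 0.289 in WT and 0.633, 2.11 and 1.95 in Nr2e3-/-. Adra1b was thus the more abundant of the pair in all WT libraries and in Nr2e3-/- replicate 1, and Avpr1a in the other two. The sum of the 3 receptors was 16.6, 16.8 and 18.3 normalized CPM per kb in WT and 17.5, 22.3 and 22.6 in Nr2e3-/-, and these ranges overlapped. Agtr1a, a Gq-coupled hormone receptor outside the set, was not part of these shares and sums. It stood at 18.7 ± 2.40 normalized CPM per kb in WT, above Adra1b, and at 8.72 ± 1.66 in Nr2e3-/- (SD, n = 3 each).

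**Figure D2:**
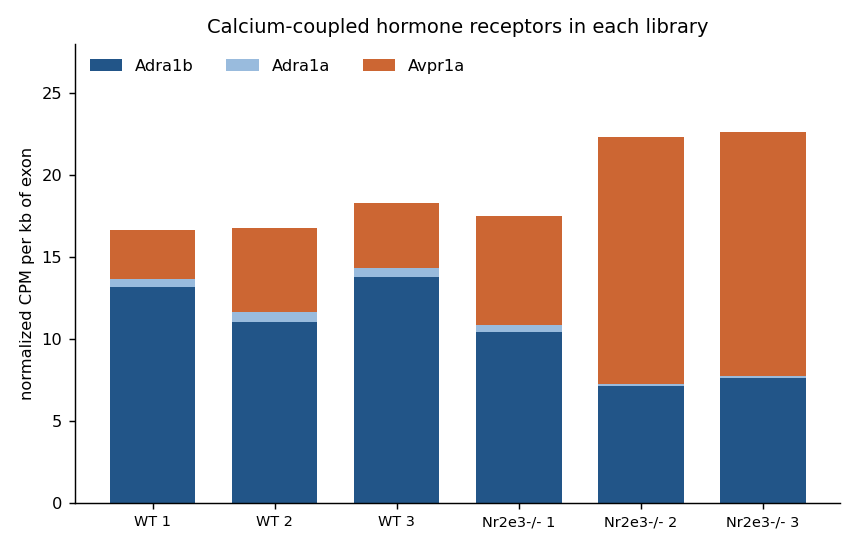
Stacked bars of Adra1b, Adra1a and Avpr1a in normalized CPM per kb of exon (vertical axis, from 0) for each of the 6 libraries. The Avpr1a segment is the largest in Nr2e3-/- replicates 2 and 3, at 67.5% and 65.7% of the sum, and lies between Adra1b and Adra1a in size in the other 4 libraries.

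Adora1 (chr1:134199223-134235431, minus strand), the high-affinity adenosine receptor that lowers cAMP, stood at 43.7, 43.6 and 40.2 normalized CPM in WT. In Nr2e3-/- it stood at 21.6, 11.1 and 8.38. The WT libraries were close together, and all Nr2e3-/- libraries were well below them, at 50.8%, 26.2% and 19.7% of the WT mean. Means were 42.5 ± 1.98 and 13.7 ± 6.96 (SD, n = 3 each), with a log2 fold change of -1.64 (SE 0.32), an edgeR p of 0.00127 and an adjusted p of 0.0930. A change of at least this size was found for 1.81% of tested genes. The adjusted p was 8.33e-05 by DESeq2, 0.00912 by limma-voom (log2 fold change -2.09) and 0.00138 by edgeR without Nr2e3-/- replicate 1 (-2.11). Of 13 alternative fits, only these 3 gave an adjusted p under 0.05. By edgeR without Nr2e3-/- replicate 3 it was 0.338.

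Exons of Adora1 overlap Mybph, a gene on the opposite strand. Mybph had 156, 183 and 181 counts in WT and 46, 35 and 24 in Nr2e3-/-, against 1137, 1290 and 1160 and then 326, 300 and 155 for Adora1. Its log2 fold change was -1.74 (SE 0.34, edgeR adjusted p 0.0936). The strand setting of the counting is not given in the sources used here, so reads from the shared stretch cannot be assigned to either gene. Mybph was also the second most alike gene to Adora1 in library pattern (0.131), after Ank3, the scaffold protein ankyrin-G (0.115). Gcgr and Avpr1a also lie across antisense RNAs, Gm11789 and Gm48877, with no shared exon.

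Adora2a (chr10:75316877-75334784, plus strand), the adenosine receptor with the opposite effect on cAMP, was near the lower end of what could be tested. It had 40, 43 and 37 counts in WT and 28, 39 and 20 in Nr2e3-/-. These are 1.54, 1.45 and 1.28 normalized CPM against 1.85, 1.45 and 1.08, and the groups overlapped. The log2 fold change was 0.03 (SE 0.28, edgeR adjusted p 0.959), and its sign depended on the setting. The difference between the 2 adenosine receptors in their fold change was not tested.

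P2ry2 (chr7:100996568-101012866, minus strand), the receptor for ATP and UTP released from cells, had very close levels in WT, at 22.9, 23.8 and 23.4 normalized CPM. Nr2e3-/- libraries stood at 22.1, 42.2 and 29.3. Replicate 1 was just below the WT range, at 94.7% of the WT mean, and replicates 2 and 3 were above it, at 181% and 125% of the WT mean. Means of 23.3 ± 0.413 and 31.2 ± 10.2 (SD, n = 3 each) gave a log2 fold change of 0.42 (SE 0.22) and an edgeR adjusted p of 0.307. Without Nr2e3-/- replicate 1 the values were 0.63 and 0.0360, and without replicate 2 they were 0.14 and 0.597. The gene with the most similar pattern was Cd163, a scavenger receptor of macrophages (root mean square difference 0.0416), followed by the stress kinase gene Eif2ak4 (0.0478).

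S1pr1 (chr3:115710433-115715072, minus strand) ranged from 38.7 to 53.0 normalized CPM in WT and from 29.5 to 44.2 in Nr2e3-/-. Its 6 values were 39.4, 53.0 and 38.7, then 44.2, 36.2 and 29.5. The groups overlapped, with means of 43.7 ± 8.05 and 36.6 ± 7.35 (SD, n = 3 each), a log2 fold change of -0.26 (SE 0.19) and an edgeR adjusted p of 0.448. The closest patterns were those of Zmynd8 (0.0404) and St6galnac3 (0.0449). Ptger3 (chr3:157566892-157645888, plus strand) was barely detected, with 1, 2 and 0 counts in WT and 0, 0 and 4 in Nr2e3-/-, and a difference was not detectable at this depth.

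Ordered by level per kb of exon, Gcgr led both groups by a wide margin, at 66.1 ± 0.820 normalized CPM per kb in WT and 59.1 ± 4.54 in Nr2e3-/- (SD, n = 3 each). Behind it in WT came S1pr1 (14.3 ± 2.64) and Adra1b (12.7 ± 1.45), whose libraries overlapped. Adora1 (7.35 ± 0.342), P2ry2 (5.95 ± 0.105) and Avpr1a (4.02 ± 1.06) followed without overlap between neighbors. Adra1a (0.551 ± 0.0882) and Adora2a (0.465 ± 0.0422) overlapped each other at the low end. In Nr2e3-/- the second place was held by Avpr1a (12.2 ± 4.83), but it overlapped with S1pr1 (12 ± 2.41), S1pr1 with Adra1b (8.41 ± 1.78), and Adra1b with P2ry2 (7.95 ± 2.60). Adora1 (2.37 ± 1.20) came next. Gcgr exceeded Adora1 per length 8.82-, 8.63- and 9.57-fold in the WT libraries and 17.2-, 29.2- and 39.1-fold in Nr2e3-/-, ratios that were also chosen after the values had been seen.

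Among 59 receptors for purines, catecholamines, vasopressin, angiotensin, lipid mediators and class B peptide hormones, 36 were tested. By level per length, Avpr1a moved from rank 9 in WT to rank 2 in Nr2e3-/-, and Adora1 from rank 5 to rank 10. Gcgr stayed at rank 1, S1pr1 at 3 and P2ry2 at 6. The only receptor outside the 9 in the first 6 ranks was Agtr1a, the angiotensin II receptor, which also couples to Gq. It stood at 52.0 ± 6.70 normalized CPM in WT and 24.3 ± 4.64 in Nr2e3-/- (SD, n = 3 each), with no overlap, a log2 fold change of -1.10 (SE 0.17) and an edgeR adjusted p of 0.0844.

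**Figure D3:**
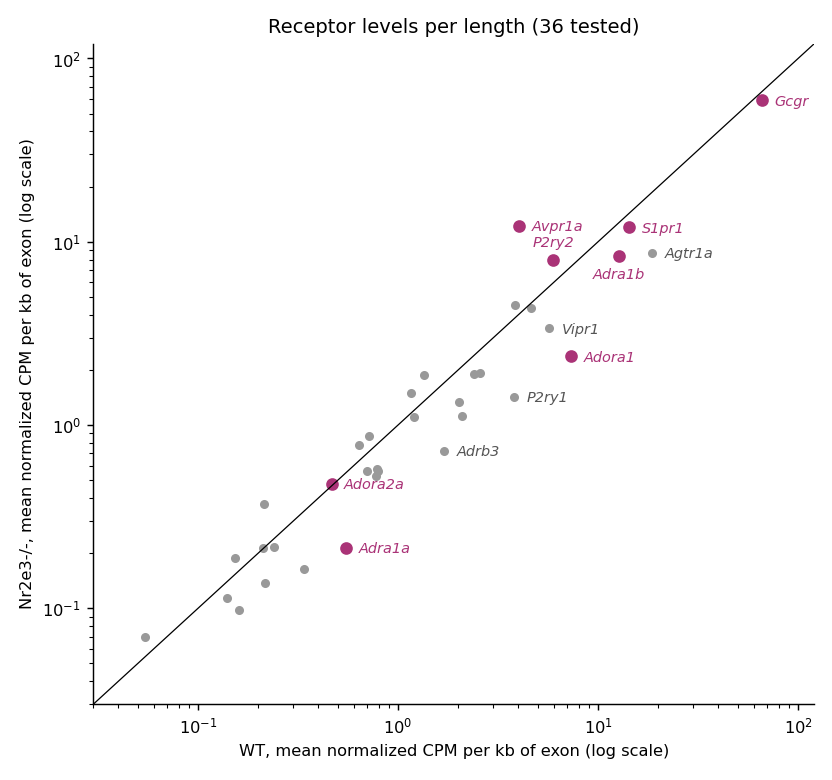
Mean level of the 36 tested receptors in WT (horizontal axis) and Nr2e3-/- tumors (vertical axis), both in normalized CPM per kb of exon on log scales, with the receptors of the set in magenta, others in gray and the line of equal levels in black. Gcgr lies near the line at the top, Avpr1a well above it, and Adora1, Adra1b, Agtr1a and P2ry1 below it.

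Of 28 other receptors tested, 6 or 21.4% had an unadjusted edgeR p under 0.05, against 21.5% of all genes. Of 7 other purine receptors tested, 1 did so, P2ry1, the ADP receptor, at 16.4 ± 2.13 in WT and 6.11 ± 3.43 in Nr2e3-/- (log2 fold change -1.45, adjusted p 0.124). Its direction was opposite to that of P2ry2, a difference that was not tested. Among 5 other catecholamine, vasopressin and angiotensin receptors, Agtr1a and the beta-3 receptor Adrb3 (log2 fold change -1.25, adjusted p 0.134) were lower and the beta-1 receptor Adrb1 (0.81, adjusted p 0.229) higher at that threshold. Of the 4 class B receptors tested beside Gcgr, Vipr1 (-0.77) and Glp2r (-1.05) were lower, and none of the 12 other lipid mediator receptors passed it. Leaving out Nr2e3-/- replicate 1, edgeR called 8 of 29 other receptors at an adjusted p under 0.05, 1 higher and 7 lower, beside 21.8% of all genes, and the median of the other catecholamine, vasopressin and angiotensin receptors moved from -0.37 to -1.23 with 3 of 5 called lower. The median log2 fold change was -0.21 over the 8 receptors of the set and 0.01 over all genes. Over the other purine receptors it was -0.28, over the other lipid mediator receptors -0.26 and over the other class B receptors -0.85. With the -0.37 of the other catecholamine, vasopressin and angiotensin receptors, each of these lists was below the set.

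**Figure D4:**
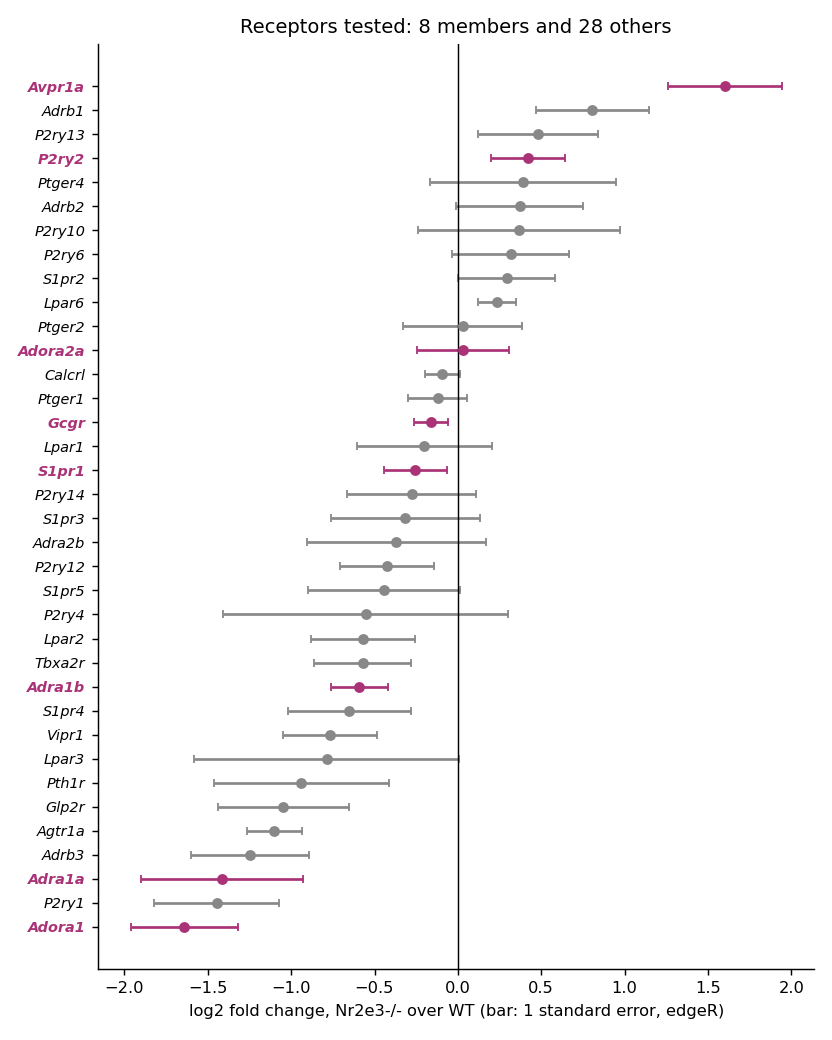
Log2 fold change of Nr2e3-/- over WT (horizontal axis) with 1 standard error from edgeR for the 8 receptors of the set (magenta) and 28 other tested receptors (gray), ordered by value. Adora1 at -1.64 and Avpr1a at 1.60 are far apart on the axis, with Gcgr at -0.16 and Adora2a at 0.03 near 0.

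Downstream of these receptors, the calcium arm (phospholipase C isoforms, IP3 receptors and kinases, protein kinase C and calmodulin-dependent enzymes) had the highest share of genes at an unadjusted edgeR p under 0.05 among the signaling lists, 13 of 22 or 59.1%, against 21.5% of all genes. On the lower side were 11, among them the kinase gene Prkca at 21.8 ± 2.55 in WT and 12.7 ± 1.83 normalized CPM in Nr2e3-/- (log2 fold change -0.78, adjusted p 0.0930). Phka2 (-0.58, adjusted p 0.123) and the IP3 receptor gene Itpr3 (-1.10, adjusted p 0.133) were lower as well. The 2 on the higher side were Atp2a2, the pump that returns calcium to the endoplasmic reticulum (275 ± 25.2 and 418 ± 26.0, log2 fold change 0.61, adjusted p 0.0930), and Itpkc, an IP3 kinase named after its values were seen (1.44, adjusted p 0.167). None of the 22 had an adjusted p under 0.05. The list median was -0.23. The list was chosen with earlier results of these data known, so its share is a description and not a test. With Nr2e3-/- replicate 1 left out, 7 of 22 were called at an adjusted p under 0.05, 2 higher and 5 lower, beside 21.8% of all genes.

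In the cAMP arm, 6 of 32 tested genes had an unadjusted edgeR p under 0.05, 2 higher and 4 lower, which is near the share in all genes. The lower ones were the cyclase genes Adcy6 (59.2 ± 6.16 in WT and 21.1 ± 8.36 in Nr2e3-/-, log2 fold change -1.49, adjusted p 0.0930) and Adcy5 (-1.73, adjusted p 0.113) and the phosphodiesterase genes Pde4d (-1.73, adjusted p 0.0930) and Pde4c (-1.01, adjusted p 0.133). The first pair make cAMP and the second pair degrade it. Those on the higher side, named after their values were seen, were Crem, a cAMP-responsive transcription factor gene (27.7 ± 3.20 and 59.7 ± 26.0, log2 fold change 1.11, adjusted p 0.135), and Prkar1a, a regulatory subunit of protein kinase A (0.29, adjusted p 0.213). EdgeR called 10 of 32 without Nr2e3-/- replicate 1, 2 higher and 8 lower, beside 21.8% of all genes. With all 6 libraries, the median of the cAMP list was -0.32, below the -0.23 of the calcium arm, and 22 of 32 genes were below 0. Of 12 G-protein alpha subunits tested, only Gna12 had an unadjusted p under 0.05 (log2 fold change -0.66, adjusted p 0.177), and Gnas and Gnaq were at 0.07 and 0.14.

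Genes that glucagon and cAMP induce or repress in hepatocytes split evenly, with 3 of 19 higher and 3 lower at an unadjusted edgeR p under 0.05, where 11.8% of all genes were higher and 9.72% lower. Sds, serine dehydratase (log2 fold change 0.98, adjusted p 0.104), Tat, tyrosine aminotransferase (1.30, adjusted p 0.127), and the kinase gene Sik1 (0.89, adjusted p 0.157), named after its values were seen, were higher. On the lower side, Gys2, liver glycogen synthase, was at -0.49 (adjusted p 0.133). Pck1, the best known glucagon-induced gene of gluconeogenesis, overlapped between groups (0.40, SE 0.37, adjusted p 0.551), as did G6pc (0.18, SE 0.52, adjusted p 0.861). When Nr2e3-/- replicate 1 was left out, 2 of 19 were called, both higher, a smaller share than the 21.8% of all genes.

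Genes of nucleotide and adenosine handling, a list that also holds enzymes acting inside cells, were lower in 7 and higher in 1 of 19. This was at an unadjusted edgeR p under 0.05, where 9.72% of all genes were lower and 11.8% higher. Entpd5, a nucleotide diphosphatase (359 ± 10.3 and 248 ± 15.1, log2 fold change -0.54, adjusted p 0.0930), Enpp1 (-0.50, adjusted p 0.0984) and the ATP release channel Panx1 (-1.41, adjusted p 0.113) were lower. Nt5e, the ectonucleotidase that makes adenosine, was at 11.8 ± 2.88 in WT and 5.71 ± 1.98 in Nr2e3-/- (-1.05, adjusted p 0.130). Pnp, which breaks down inosine, was the 1 on the higher side (0.47, adjusted p 0.0999). In the 5 other libraries, without Nr2e3-/- replicate 1, edgeR called 6 of 19, 1 higher and 5 lower, beside 21.8% of all genes.

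Of 17 GRK, arrestin and RGS genes tested, which end receptor signaling, 3 or 17.6% had an unadjusted edgeR p under 0.05, below the 21.5% of all genes, and these 3 were lower. They were the receptor kinase genes Adrbk2 (also named Grk3, log2 fold change -1.57, adjusted p 0.117) and Grk4 (-1.34, adjusted p 0.124), and Rgs3 (-0.70, adjusted p 0.126). Leaving out Nr2e3-/- replicate 1, edgeR called 1 of 17 higher and 2 lower, beside 21.8% of all genes. In sphingosine-1-phosphate and prostaglandin metabolism, 2 of 15 were higher and 3 lower at an unadjusted edgeR p under 0.05. Of all genes, 11.8% were higher and 9.72% lower at that threshold. The same numbers were called at an adjusted p under 0.05 without Nr2e3-/- replicate 1, beside 21.8% of all genes. Sphk1, which makes the ligand of S1pr1, was at 0.384, 0.507 and 0.0694 normalized CPM in WT and at 0.794, 3.71 and 1.14 in Nr2e3-/- (2.58, adjusted p 0.142), low values in both groups.

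**Figure D5:**
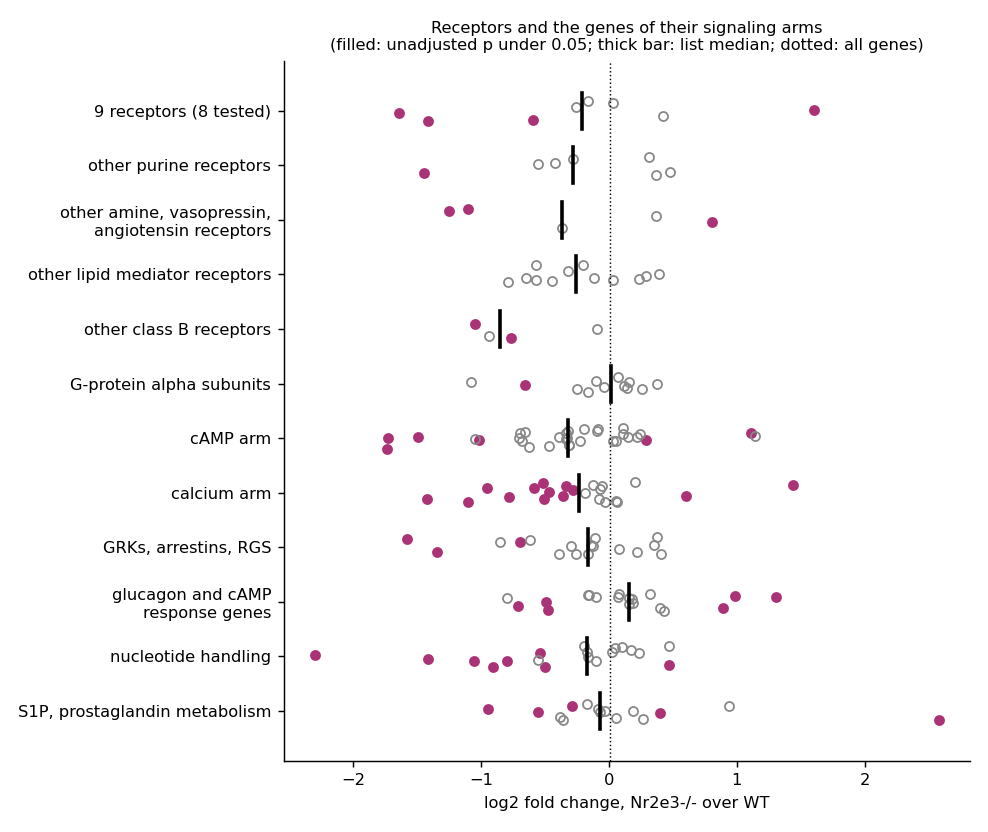
Log2 fold change of Nr2e3-/- over WT (horizontal axis) for every tested gene of the receptor set, the other receptor lists and the signaling lists (vertical axis), filled where the unadjusted edgeR p was under 0.05, with a thick bar at the list median and a dotted line at the median of all genes. The calcium arm has the most filled points below 0, 11 of 22 genes, while filled points of the glucagon response genes lie on both sides.

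Cell type markers were summed in each library because several of these receptors are also found outside hepatocytes. Hepatocyte markers summed to 135060 to 165506 normalized CPM in WT and 125385 to 142945 in Nr2e3-/-, so the tumors held abundant hepatocyte RNA in both groups. Gene by gene, their median log2 fold change was 0.14, with 7 of 10 above 0. At an unadjusted edgeR p under 0.05, 3 of 10 were higher and 0 lower, where 11.8% of all genes were higher and 9.72% lower. The macrophage and Kupffer cell markers ranged from 333 to 417 in WT. In Nr2e3-/- they stood at 294, 738 and 382, so that only replicate 2 was above WT. P2ry2 was above all WT libraries in Nr2e3-/- replicates 2 and 3, at 42.2 and 29.3 normalized CPM, and not in replicate 1 (22.1). Avpr1a was above WT in all 3 Nr2e3-/- libraries, at 17.7, 40.2 and 39.7 normalized CPM. Of the macrophage and Kupffer cell markers, 9 of 9 had a log2 fold change above 0, none with an unadjusted edgeR p under 0.05. Their median turned from 0.32 to -0.23 without Nr2e3-/- replicate 2. The neutrophil sum was 3.33 to 5.58 in WT and 3.18, 25.7 and 15.1 in Nr2e3-/-. The bile duct sum was 57.3 to 119 in WT and 69.1, 429 and 185 in Nr2e3-/-. For both sums, Nr2e3-/- replicates 2 and 3 were above WT and replicate 1 was not. The endothelial sum, for S1pr1, was 536 to 552 in WT and 441 to 555 in Nr2e3-/-. The lowest sum and the lowest S1pr1 were both in Nr2e3-/- replicate 3. WT replicate 2, however, had the highest S1pr1 (53.0 normalized CPM) with the lowest WT sum (536). Nr2e3-/- replicate 2 had a sum of 555 with S1pr1 at 36.2. Stellate markers ran from 391 to 476 and from 246 to 436. Their median log2 fold change was -0.38, with 0 of 11 at an unadjusted edgeR p under 0.05. Without Nr2e3-/- replicate 1 the median was -0.61, and edgeR called 5 of 11 lower, beside 21.8% of all genes. Sums were, for smooth muscle markers, 111 to 118 and 81.8 to 121, and for T and NK markers, 16.3 to 31.4 and 12.6 to 39.8. B cell markers, 4 of 4 below 0, ran from 2.96 to 3.38 and from 1.03 to 1.59. For hepatocyte zones, the median log2 fold change was -0.15 over 10 pericentral and 0.06 over 10 periportal markers. No marker list had a gene at 0 in all libraries, and the part of these cell types in the receptor results was not tested.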

How the data were processed

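RNA from 6 DEN-induced liver tumors, 3 WT and 3 Nr2e3-/-, was isolated with a miRvana kit and made into TruSeq libraries. The authors mapped the single-end reads with TopHat (mm10) and assigned them to genes with FeatureCounts, and the deposited values used here are raw counts. The submitters' processing notes also list DESeq, Bowtie2 2.4.5 and SAMtools 1.14. The TopHat and FeatureCounts versions and the strand setting are not given in the sources used here. The authors' normalized table, and their comparison table of fold changes and p-values, were not used. Groups came from the labels, and dose, age and time point from the study's methods. Depth was 15376261 to 28690279 counts per library, and 18815 of 24063 genes had a count.

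Counts were filtered with filterByExpr (minimum count 10, minimum total 15), normalized by TMM and tested with the two-sided quasi-likelihood F test of edgeR 4.0.16 in R 4.3.3, adjusted by Benjamini-Hochberg over 13572 genes. Genes were called at an adjusted p-value under 0.05, and standard errors were derived from the F statistic. Normalized CPM used no prior count. Levels were compared between genes per kb of summed exon length from GENCODE vM21 (GRCm38). Tables and figures used Python 3.11.15, pandas 2.3.3 and matplotlib 3.10.9, and the test was tried on simulated data.

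The 9 receptors and 22 gene lists were chosen with earlier results of these data known, and the lists were written from memory. Of 291 list entries, 3 were matched by an older symbol and 3 were not found. All 9 receptors were named, and from each list at most the 4 genes with the smallest p-values, direct subtypes and the best known effector. Genes with the most similar pattern were the 2 with the smallest root mean square difference of centred log2 levels over the 6 libraries. Each result was also computed with DESeq2 1.42.0 and with limma-voom (limma 3.58.1) and sample quality weights. Within edgeR, the normalization was changed to RLE or upper quartile, the filter to any gene with 1 count or only genes reaching 10 counts in each library, the replicate number was added as a block, and single libraries were left out. Samples with the same replicate number did not deviate together in all pairs (correlations -0.0766, 0.221 and 0.0234).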

Additional observations from a re-analysis of the deposited data

How the results depend on the processing

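Which receptors passed an adjusted p of 0.05 depended on the test and on 1 library. EdgeR called 13 genes and no receptor. RLE normalization gave the same counts, 13 and 0. Calls over all genes, receptors and list genes were 8, 0 and 0 with upper quartile normalization, 1093, 2 and 34 with DESeq2, 2360, 4 and 61 with limma-voom, 70, 0 and 2 with the filter lowered to 1 count, and 7, 0 and 0 with 10 counts required in each library. Leaving out 1 library at a time gave 0 to 3022 genes, 0 to 5 receptors and 0 to 63 list genes, the highest of each without Nr2e3-/- replicate 1 and 0 genes without WT replicate 1, WT replicate 3 or Nr2e3-/- replicate 3. The cause was not tested. With the replicate number as a block, 0 genes were called, and the pairing of the numbers was not borne out by the libraries. Avpr1a kept its sign in all 13 alternatives (log2 fold change 1.42 to 1.90), as did Adora1 (-2.11 to -1.38), Adra1a (-2.21 to -1.05), Adra1b (-0.77 to -0.49), Gcgr (-0.24 to -0.13), P2ry2 (0.14 to 0.63) and S1pr1 (-0.43 to -0.09). Adora2a changed sign with upper quartile normalization (-0.051), limma-voom (-0.20), without WT replicate 3 (-0.042) and without Nr2e3-/- replicate 1 (-0.15), and leaving out 1 library at a time gave -0.15 to 0.20. With 3 libraries per group and 20 to 43 counts for Adora2a, smaller differences could not be resolved.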
